A study of Oryzias latipes with 6 samples.

Results

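The red blood cell genes hbbe2, alas2, slc4a1a and cahz were followed in the adult brain of Japanese medaka (Oryzias latipes), a small freshwater fish. They were taken by their exact row names, 4 of the 24365 genes in each of the 14 tables deposited for 14 clusters of brain nuclei. They were selected on their levels over the clusters and on their lineage differences in these same tables, whose earlier results were known. Both are therefore given as descriptions.

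Droplet-based single-nucleus RNA-seq had been run on the whole brains of 6 male fish of the F1 generation, aged 6 months, in a single sequencing batch. In the BaP lineage (3 fish) the parents had been exposed for 21 days to benzo[a]pyrene (BaP) at 1 µg/L, a polycyclic aromatic hydrocarbon formed in combustion. In the control lineage (3 fish) the parents had been given solvent for the same 21 days. All F1 fish grew up in clean water, so the comparison asks what differs in the offspring of exposed parents.

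Red blood cells of fish keep their nucleus and go on transcribing in the circulation, so nuclei isolated from a whole brain can include those of blood. Their RNA is dominated by globins, whose protein binds oxygen through the iron-holding pigment heme. Globin RNA is so abundant that it is often caught in droplets that hold a nucleus of another type. hbbe2 carries the name of a zebrafish embryonic beta globin. alas2 encodes the erythroid 5-aminolevulinate synthase, the first and rate-limiting enzyme of heme synthesis. slc4a1a encodes band 3, the anion exchanger and most abundant protein of the red cell membrane. cahz encodes a carbonic anhydrase known from zebrafish red cells, which interconverts carbon dioxide and bicarbonate, the ion that band 3 carries.

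The tables pool the 3 fish of a lineage, and the differences below carry no error across fish. Levels are in CPM, here the count of UMIs (molecular barcodes that tag single captured transcripts) scaled to a common total per cluster and lineage. They were derived from the authors' deposited tables after taking out the prior counts that damp the deposited values, under assumptions given with the processing. UMI numbers are estimates from the same arithmetic, and their 95% intervals (exact Poisson or Clopper-Pearson) cover counting error only. By that arithmetic the tables held 7512 nuclei, 5083 of the BaP lineage and 2429 of the control lineage, at 69 to 1754 nuclei per cluster and a mean of 684 to 1905 UMIs per nucleus. UMIs of mitochondrially encoded genes made up 6.24 to 35.6% of a cluster in the BaP lineage and 14.7 to 38.0% in the control lineage, and the share was lower in the BaP lineage in 14 of 14 clusters. The part of this gap in the results below was not tested, beyond a rescaling without those genes.

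All 4 genes were highest in cluster 8, which held 370 nuclei, 227 of the BaP lineage and 143 of the control lineage. That was 4.47% of the BaP-lineage nuclei (interval 3.91 to 5.07%) and 5.89% of the control-lineage nuclei (interval 4.98 to 6.90%), with no spread over fish to set against the gap. Cluster 8 was not of red cells alone. Of 22 endothelial markers in the tables, 18 reached at least 2 times the mean of the other clusters and 16 were highest there, among them kdr and kdrl, receptors of the vascular growth factor VEGF. The 22 markers summed to 3234 CPM in the BaP lineage and 2072 CPM in the control lineage, with cldn5b and slc2a1a at 0. Markers of thrombocytes reached 2 times their mean elsewhere for 5 of 7 genes, among them nfe2, also on the wider red cell list below, and f5, from 2 UMIs. Those of mural cells did so for 6 of 10, but 3 of 10 were highest in cluster 8. The mural markers summed to 456 CPM in cluster 8 and 475 CPM in cluster 9. Those of granulocytes reached 2 times for 3 of 4, from 2 or 3 UMIs each, and those of neurons for 0 of 7. Of 9 lymphocyte markers, lck, zap70, rag1, rag2 and il2rb were at 0. The other 4 were tcf7 at 50.5 CPM, ikzf1 at 22.5 CPM, pax5 at 15.4 CPM and cd79a at 3.41 CPM, and ikzf1 and cd79a reached 2 times their mean elsewhere. The level of a red cell gene in cluster 8 is thus a mean over red cells and other cells, and fewer red cells cannot be told apart from less RNA per red cell.

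Within cluster 8, hbbe2 was by far the most abundant of the 4. It stood at 52643 CPM in the BaP lineage and 44442.5 CPM in the control lineage, or 72.5 and 61.5 UMIs per nucleus. alas2 stood at 1080 CPM in the BaP lineage and 1035 CPM in the control lineage, from 543 UMIs in all. These libraries read the 3′ end of transcripts, and levels were not scaled to gene length. Whether gene length bears on the levels of the 4 genes in nuclei was not tested.

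cahz was close to alas2, at 896 CPM in the BaP lineage and 914 CPM in the control lineage, from 461 UMIs. slc4a1a was the lowest of the 4, at 416 CPM in the BaP lineage and 265 CPM in the control lineage, from 183 UMIs. Together the 4 genes made up 5.50% of the UMIs of cluster 8 in the BaP lineage and 4.67% in the control lineage.

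None of the 4 genes was called different between the lineages in cluster 8, a call being an adjusted p under 0.05 in the authors' deposited table. The log2 fold change, BaP lineage over control lineage, was 0.24 for hbbe2 in the authors' deposited table (unadjusted p = 0.304, adjusted p = 1). In the authors' deposited table it was 0.06 for alas2, -0.03 for cahz and 0.51 for slc4a1a, the last with an unadjusted p of 0.0688 and an adjusted p of 1. Over all genes of cluster 8, 0.0739% were called lower and 0.0616% higher in the BaP lineage. With totals taken without the mitochondrially encoded genes, the value of hbbe2 became -0.000666, that of alas2 -0.19 and that of cahz -0.27. That rescaling moves all genes of cluster 8 down by the same amount. It turned the sign of hbbe2 and alas2, while cahz stayed below 0 and slc4a1a above 0, at 0.27.

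Outside cluster 8, hbbe2 had UMIs in each of the 13 other clusters. It was highest in cluster 13, at 7365 CPM (interval 6834 to 7928), and next in cluster 7, at 2774 CPM (2636 to 2916). Cluster 13 was led by c7b, the iodide transporter gene slc5a5 and the plasma protein genes ahsg2 and apoa1b, and cluster 7 by the epithelial keratin genes krtt1c19e and krt5. Clusters 2 and 6 followed at 1350 and 1308 CPM, with overlapping intervals. The intervals of neighbours in the order also overlapped through clusters 0, 5, 4, 3, 10, 9, 11, 12 and 1, at 990.1 CPM in cluster 0 and 475 CPM in cluster 1. Neighbours among those 9 are thus not separated by these counts, while the intervals of clusters 0 and 1, at the ends, lie apart.

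**Figure D1:**
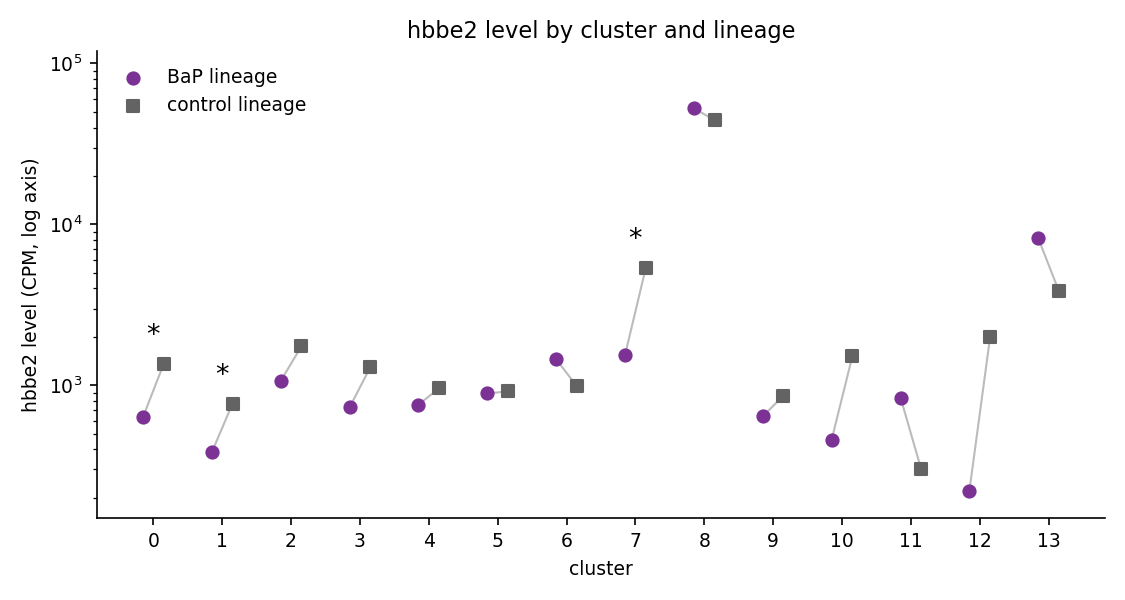
Level of hbbe2 (CPM, log axis) in each of the 14 clusters, for the BaP lineage (circles) and the control lineage (squares), joined by a line. Asterisks mark an adjusted p under 0.05 in the authors' deposited tables. Cluster 8 stands at 52643 CPM in the BaP lineage and 44442.5 CPM in the control lineage, above every other cluster, and the 3 marked clusters, 0, 1 and 7, are lower in the BaP lineage.

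The other red cell genes were found outside cluster 8 in few UMIs, 217 for alas2, 172 for cahz and 43 for slc4a1a over the 13 clusters, against 9503 for hbbe2. Set against its own level in cluster 8, 3 of the genes were nevertheless present at about the same share. Pooled over the 13 clusters, hbbe2 stood at 2.10% of its level in cluster 8 (interval 2.06 to 2.14%). alas2 stood at 2.23% (1.94 to 2.55%), cahz at 2.08% (1.78 to 2.42%) and slc4a1a at 1.31% (0.9503 to 1.77%). The intervals of hbbe2, alas2 and cahz overlapped, and that of slc4a1a lay below them. These intervals leave out the counting error of the level in cluster 8 itself, which rests on 183 UMIs for slc4a1a. Of all UMIs of a gene, 27.3% lay outside cluster 8 for hbbe2, 28.6% for alas2, 27.2% for cahz and 19.0% for slc4a1a.

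Clusters 13 and 7 had the highest values for all 4 genes, for slc4a1a from only 3 UMIs in cluster 13 and 8 UMIs in cluster 7. The intervals of slc4a1a and cahz in both clusters, and of alas2 in cluster 7, overlapped those of some of the 11 others. In cluster 13 the level was 14.9% of that in cluster 8 for hbbe2, 15.04% for alas2, 14.7% for cahz and 8.15% for slc4a1a. In cluster 7 it was 5.61% for hbbe2, 6.25% for alas2, 8.19% for cahz and 3.998% for slc4a1a. In the 11 others hbbe2 lay between 0.961 and 2.73%, and the highest values were 3.51% for alas2, 5.19% for cahz and 2.34% for slc4a1a.

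No UMI of alas2, cahz or slc4a1a was counted in cluster 12, and none of slc4a1a in clusters 4 and 9. A count of 0 allows up to 35.5 CPM in cluster 12, 4.30 CPM in cluster 4 and 7.80 CPM in cluster 9, taking 3 counts as the limit.

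**Figure D2:**
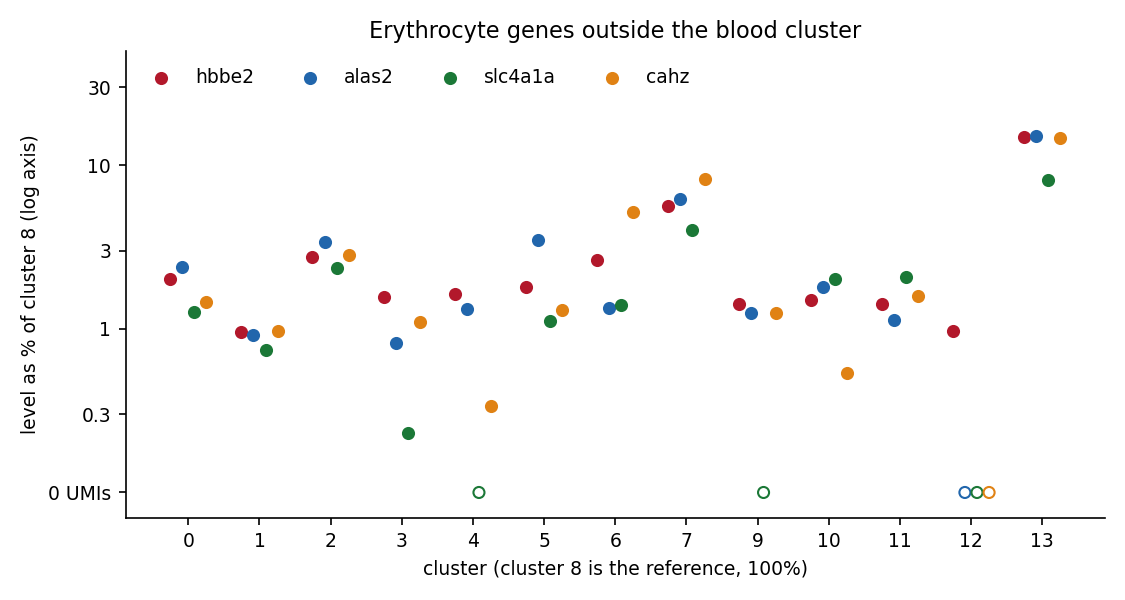
Level of each of the 4 genes in the 13 other clusters as a percent of its level in cluster 8 (log axis), both lineages together. Open circles at the bottom mark 0 UMIs. The 4 genes stand highest in cluster 13, at 8.15 to 15.04%, and then in cluster 7, at 3.998 to 8.19%.

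Endothelial genes, which mark the other part of cluster 8, were spread in a different proportion. Their summed level was 15.4% of that in cluster 8 in cluster 7 and 16.8% in cluster 13, beside 5.65 and 14.8% for the summed red cell genes. In clusters 9 and 11 the endothelial sum stood at 11.2 and 11.4%, beside 1.40 and 1.41% for the red cell genes. In cluster 9, aqp1a.1 alone gave 205 of the 312 CPM of the endothelial sum, and this gene is also on the wider red cell list below. The part of whole endothelial or blood nuclei, of free RNA and of doublets in these levels was not tested.

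The makeup of the red cell RNA was compared as the share of alas2, slc4a1a and cahz among the UMIs of all 4 genes. The share was 4.49% in cluster 8 (interval 4.24 to 4.74%, 1186 of 26442 UMIs) and 4.35% over the other 13 clusters (3.96 to 4.77%, 432 of 9935 UMIs). In 11 of the 13 clusters the interval held the value of cluster 8. Clusters 3 and 4 lay below it, at 2.39% (1.42 to 3.75%) and 2.08% (1.08 to 3.605%). Some of the 11 had few UMIs and intervals too wide to tell a like makeup from an unlike one. Cluster 12 had 0 of 40 UMIs (0 to 8.81%), and cluster 11 had 6 of 124 UMIs (1.80 to 10.2%). In the BaP lineage the share was 4.35% in cluster 8 and 4.02% elsewhere, and in the control lineage it was 4.74% in cluster 8 and 4.79% elsewhere. Gene by gene, per 100 UMIs of hbbe2, alas2 had 2.15 in cluster 8 and 2.28 elsewhere, cahz 1.83 and 1.81, and slc4a1a 0.723 and 0.452. Whether this RNA has 1 source was not tested.

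**Figure D3:**
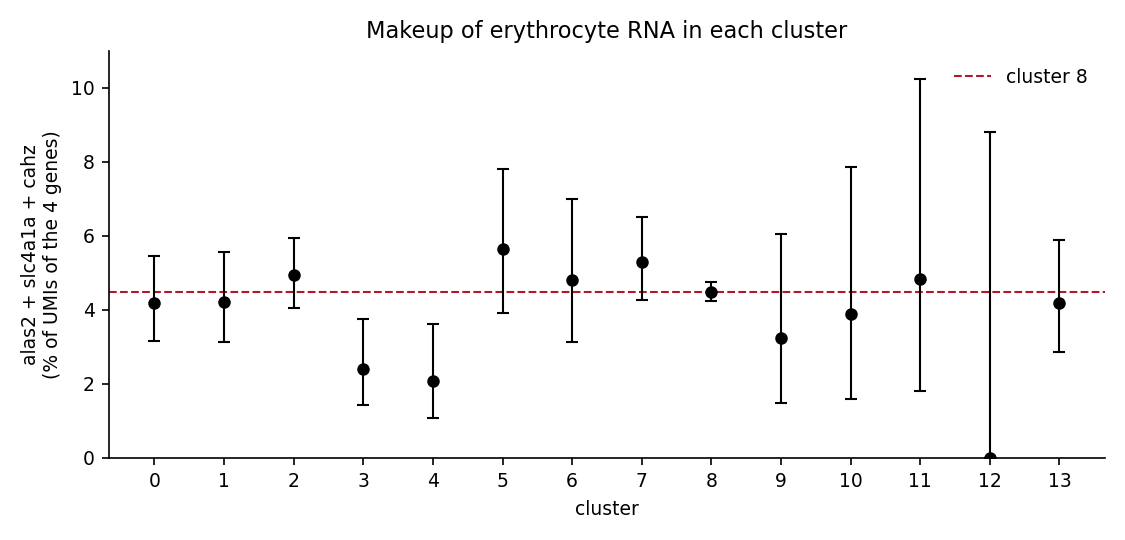
Share of alas2, slc4a1a and cahz among the UMIs of the 4 genes (%) in each cluster, both lineages together, with 95% Clopper-Pearson intervals that cover counting error only. The dashed line is the share in cluster 8, 4.49%, and the intervals of clusters 3 and 4 lie below it.

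Between the lineages, hbbe2 was called lower in the BaP lineage in 3 clusters and higher in none. Over all genes, 0.222% were called lower and 0.148% higher in cluster 0. The shares were 0.456% lower and 0.279% higher in cluster 1, with 0.144% lower and 0.0287% higher in cluster 7. In cluster 0, the largest, it stood at 633 CPM in the BaP lineage and 1357 CPM in the control lineage, with a log2 fold change of -0.92 in the authors' deposited table (adjusted p = 1.55e-07). In cluster 1 it stood at 384 CPM in the BaP lineage and 769 CPM in the control lineage (-0.89, adjusted p = 0.000456 in the authors' deposited table). In cluster 7 it stood at 1545 CPM in the BaP lineage and 5346 CPM in the control lineage (-1.73, adjusted p = 6.70e-06 in the authors' deposited table). In CPM the BaP-lineage level was thus 0.467 times that of the control lineage in cluster 0, 0.499 times in cluster 1 and 0.289 times in cluster 7. The summed endothelial, microglia and macrophage, thrombocyte, granulocyte and myelinating glia markers were each lower in the BaP lineage in these clusters. The thrombocyte and granulocyte sums were small. The other marker lists did not move the same way in all of these clusters. The myelinating glia markers summed to 118 CPM in the BaP lineage and 197 CPM in the control lineage in cluster 7. The 22 endothelial markers summed to 296 CPM in the BaP lineage and 709 CPM in the control lineage in cluster 7, 117 CPM in the BaP lineage and 192 CPM in the control lineage in cluster 0, and 106 CPM in the BaP lineage and 134 CPM in the control lineage in cluster 1. The 10 microglia and macrophage markers summed to 746 CPM in the BaP lineage and 1512 CPM in the control lineage in cluster 7. Over both lineages, apoeb gave 573 CPM and cd74a 329 CPM of the 994 CPM of that sum. Going the other way, the 5 radial glia markers summed to 2908 CPM in the BaP lineage and 1641 CPM in the control lineage in cluster 7. In cluster 0, however, the radial glia sum was lower in the BaP lineage, at 1206 CPM beside 1418 CPM in the control lineage. It was also lower in cluster 1, at 830 CPM in the BaP lineage and 954 CPM in the control lineage. The 9 lymphocyte markers summed to 76.1 CPM in the BaP lineage and 50.6 CPM in the control lineage in cluster 0. In cluster 7 the lymphocyte sum was lower in the BaP lineage, at 74.0 CPM beside 94.3 CPM in the control lineage. The part of other cell types in the lower hbbe2 was not tested.

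Among the remaining clusters the values of hbbe2 lay on both sides and none was called. They were lower in the BaP lineage in clusters 2, 3, 4, 5, 9, 10 and 12, which makes 10 of the 13 clusters outside cluster 8 with those called. The widest of these gaps was in cluster 12, at 222 CPM in the BaP lineage and 1986 CPM in the control lineage, from 40 UMIs (-2.59, unadjusted p = 0.00168, adjusted p = 1 in the authors' deposited table). In cluster 10 hbbe2 stood at 459 CPM in the BaP lineage and 1516 CPM in the control lineage (-1.54, unadjusted p = 0.00133, adjusted p = 0.665 in the authors' deposited table). Clusters 6, 11 and 13 had the higher value in the BaP lineage. In cluster 11 hbbe2 stood at 838 CPM in the BaP lineage and 301 CPM in the control lineage (1.27, unadjusted p = 0.0434, adjusted p = 1 in the authors' deposited table). In cluster 13 that was 8189.7 CPM in the BaP lineage and 3842 CPM in the control lineage (1.07, adjusted p = 1 in the authors' deposited table), from 55 nuclei of the BaP lineage and 14 of the control lineage.

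alas2 was called lower in cluster 0, where about 3 UMIs fell in the BaP lineage and 28 in the control lineage, or 4.36 and 46.9 CPM. Its log2 fold change there was -0.30 in the authors' deposited table (adjusted p = 0.00287), a value damped by the prior count, and -3.43 with that count taken out. cahz was called lower in cluster 7, at 28.6 CPM in the BaP lineage and 169 CPM in the control lineage, from 11 and 30 UMIs (-1.14, adjusted p = 0.00538 in the authors' deposited table). alas2 in cluster 7 had 41.7 CPM in the BaP lineage and 118 CPM in the control lineage and was not called (adjusted p = 0.795 in the authors' deposited table). slc4a1a was called in no cluster, with at most 13 UMIs in any cluster but 8.

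In all, 5 of the 56 pairs of gene and cluster were called lower in the BaP lineage and 0 higher in the authors' deposited tables, and at an unadjusted p under 0.05 the numbers were 11 and 1. Over all genes, 0.133% of such pairs were called lower and 0.116% higher in the 14 clusters together, and 1.19 and 1.85% at the unadjusted threshold. The genes had been chosen with this contrast known, so nothing is read from that difference. These p-values appear to treat nuclei as replicates, and they do not measure the spread between fish.

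**Figure D4:**
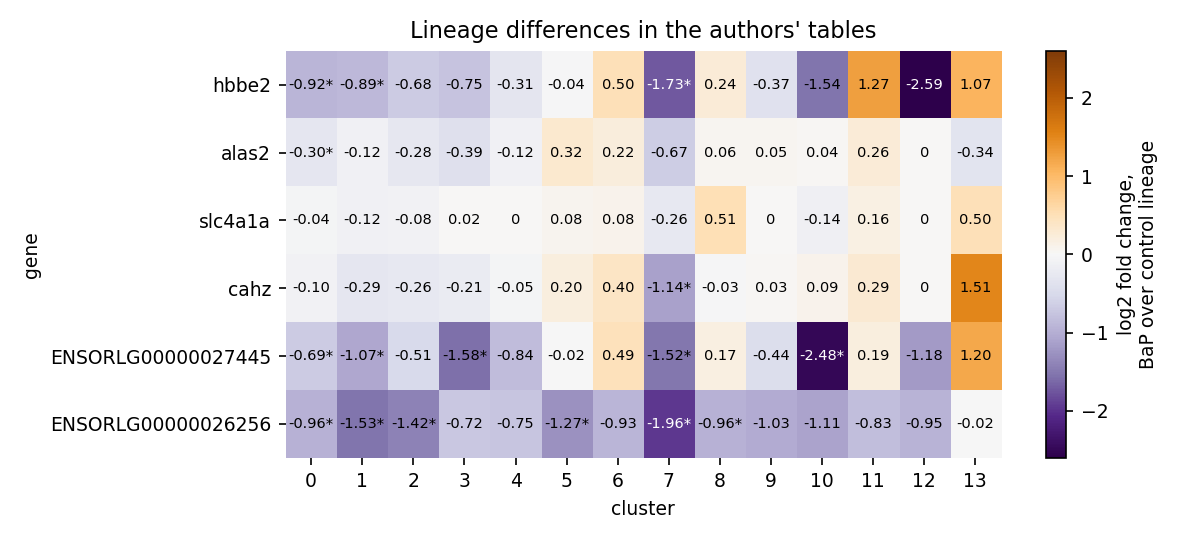
Log2 fold change, BaP lineage over control lineage, of the 4 genes and of a pair of unnamed genes in each cluster, as the authors' deposited tables give it. Asterisks mark an adjusted p under 0.05, and a plain 0 marks a gene with no UMI. The 4 named genes carry 5 asterisks, all on values below 0, and none in cluster 8.

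Taken as a share of cluster 8 within each lineage and pooled over the 13 clusters, the level outside cluster 8 was lower in the BaP lineage for all 4 genes. hbbe2 stood at 1.59% of its cluster 8 level in the BaP lineage and 3.44% in the control lineage. alas2 stood at 1.65% in the BaP lineage and 3.69% in the control lineage. cahz stood at 1.55% in the BaP lineage and 3.38% in the control lineage, and slc4a1a at 0.811% in the BaP lineage and 2.99% in the control lineage. The lineages also differed in how their nuclei were spread over the clusters. Cluster 0, for one, held 16.6% of the BaP-lineage nuclei and 37.5% of the control-lineage nuclei. For hbbe2, which can be read in each cluster, the median of the 13 shares was 1.44% in the BaP lineage and 2.91% in the control lineage. For alas2 the median was 1.49% in the BaP lineage and 1.63% in the control lineage, and for cahz it was 1.33% in the BaP lineage and 1.06% in the control lineage. For slc4a1a it was 1.09% in the BaP lineage and 0% in the control lineage, so that the medians of cahz and slc4a1a ran the other way from the pooled shares. Few UMIs per cluster stand behind these 3 genes, and the control lineage had fewer nuclei, 2429 beside 5083 in the BaP lineage. The slc4a1a values above 0 outside cluster 8, in clusters 3, 5, 6, 11 and 13, came from 1 to 3 UMIs each, all in the BaP lineage. The part of the unequal numbers of nuclei in these medians and in the signs by cluster was not tested. By cluster the deposited fold change was below 0 in 7 and above 0 in 5 for alas2, 6 and 6 for cahz, and 5 and 5 for slc4a1a in the authors' deposited tables.

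Genes with a pattern like that of the 4 were ranked by Pearson correlation of log2(CPM + 1) with the mean of the 4 over the 14 clusters, among 9241 genes with at least 10 CPM in cluster 8. These correlations share libraries and depth and describe the tables only. The first of all was ENSORLG00000027445 (r = 0.95), which has no symbol in the tables. It stood at 20412 CPM in the BaP lineage and 18116 CPM in the control lineage in cluster 8. The authors' deposited tables called it lower in the BaP lineage in clusters 0, 1, 3, 7 and 10, with log2 fold changes of -0.69 to -2.48, and not in cluster 8 (0.17). Of all genes, 0.041% were called lower in cluster 3 and 0.0616% in cluster 10. Per 100 UMIs of hbbe2 it had 39.5 in cluster 8 and 28.6 in the others.

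The 10 most similar genes with a symbol were prf1.5, gata1a, RPL22, kdr, lpl, PLPP3.1, si:ch211-103n10.5, clic2, zgc:153317 and slc47a4.1, with r between 0.94 and 0.88. They mix the cell types of cluster 8: gata1a is the master transcription factor of red cells, kdr is an endothelial receptor, and lpl encodes a lipase that acts on the vessel wall. prf1.5, named for a perforin, had 1797 CPM in the BaP lineage and 1966 CPM in the control lineage in cluster 8. In the authors' deposited tables prf1.5 was called lower in the BaP lineage in clusters 0, 1 and 2, with log2 fold changes of -0.54, -0.62 and -1.09. In cluster 2, 0.575% of all genes were called lower, and in cluster 5, 0.0903%.

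A wider list of 102 red cell gene symbols had 57 in the tables, 53 of them beside the 4. It was drawn up with earlier results known, so its levels are a description too. Of those 53, 48 were detected in cluster 8, 27 were highest there and 29 stood at 2 times or more their median elsewhere. The count of 29 took only genes with more than 3 UMIs in cluster 8. That of 27 had no such floor and included cpox, from 2 UMIs. Only 3 of 21 globin symbols were in the tables. hbae4, an alpha globin in zebrafish, had 144 CPM in the BaP lineage and 132 CPM in the control lineage in cluster 8, and hbba1 had no UMI there. Most globin symbols on the list had no row of that name, and no other row was assigned to them.

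Of 11 genes in the group of transcription factors, which also holds the erythropoietin receptor epor and its kinase gene jak2a, 8 were highest in cluster 8. Of the other 3, klf17 had 0 UMIs and mybl2b 1 UMI in cluster 8, and jak2a was higher in cluster 13. epor had 114 CPM in the BaP lineage and 68.2 CPM in the control lineage in cluster 8, with a median of 0.392 CPM over the other clusters. GFI1B, a repressor needed for red cell and thrombocyte formation, had 60.3 CPM in the BaP lineage and 120 CPM in the control lineage. These came from 19 and 24 UMIs, with a log2 fold change of -0.48 (unadjusted p = 0.0394 in the authors' deposited table). gata1a had 237 CPM in the BaP lineage and 152 CPM in the control lineage, and none of these was called in the authors' deposited table. Of 6 iron genes 5 were highest in cluster 8, all but tfr1b, and the highest was the transferrin receptor gene tfr1a, with 384 CPM in the BaP lineage and 208 CPM in the control lineage (log2 fold change 0.67, unadjusted p = 0.00901, adjusted p = 1 in the authors' deposited table). slc25a37, which imports iron into mitochondria, had 91.2 CPM in the BaP lineage and 113 CPM in the control lineage.

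Heme synthesis beyond alas2 was present at lower levels. Of 11 heme genes, alas2 included, 8 were highest in cluster 8. fech, which inserts iron as the last step of heme synthesis, had 131 CPM in the BaP lineage and 61.4 CPM in the control lineage (unadjusted p = 0.0218, adjusted p = 1 in the authors' deposited table). The heme genes hmbsa and slc25a38a had 25.0 and 34.7 CPM over both lineages.

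The membrane group was mixed, with 5 of 12 genes highest in cluster 8. Its erythroid members included rhag, an ammonium channel of the Rh complex, with 156 CPM in the BaP lineage and 179 CPM in the control lineage, and the spectrin gene sptb, with 138 CPM in the BaP lineage and 59.5 CPM in the control lineage. ANK1, which ties spectrin to band 3, stood at 355 CPM over both lineages in cluster 8 and 359 CPM in cluster 4. Of 10 red cell enzymes 2 were highest in cluster 8, the antioxidant genes gpx1a and prdx2, and of 4 carbonic anhydrases cahz alone.

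**Figure D5:**
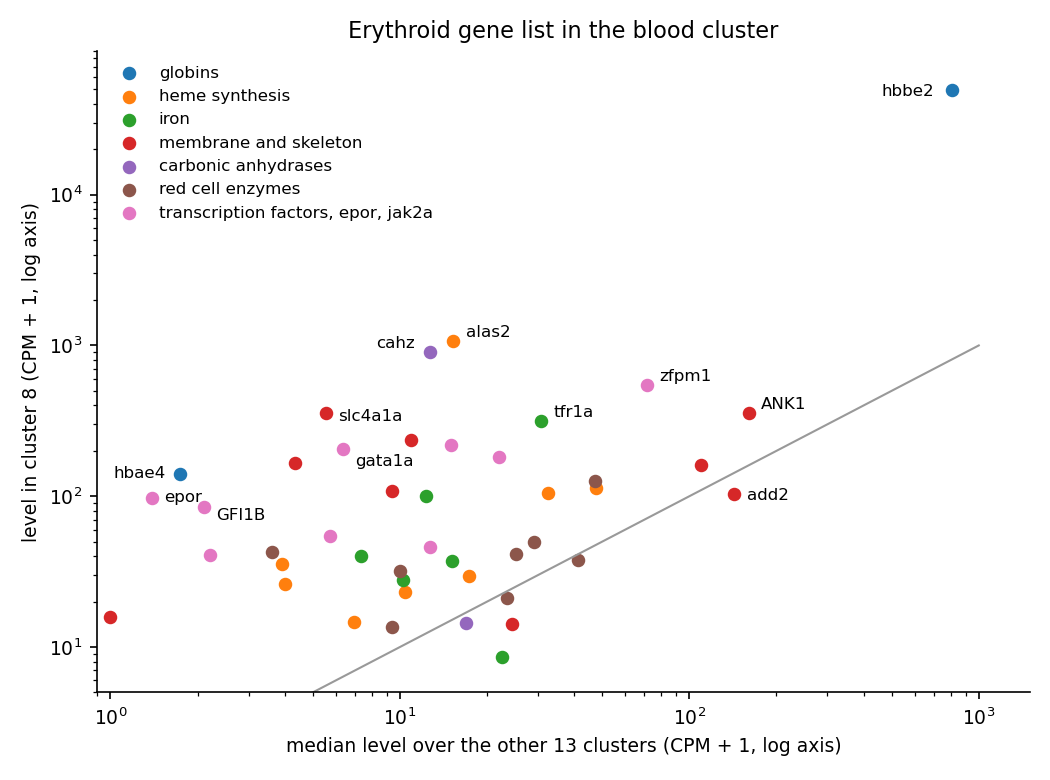
Level in cluster 8 against the median level over the other 13 clusters (CPM + 1, log axes) for the 44 list genes with more than 3 UMIs in cluster 8, coloured by role, with the line of equal levels. The 4 genes stand far above the line, with hbbe2 at 49463 CPM over both lineages, while add2 lies below it.

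In cluster 8 the median log2 fold change of the 48 detected genes beside the 4 was 0.07 in the authors' deposited table, with 31 above 0 and 17 below, beside a median of 0.05 over all 16270 detected genes. In cluster 7 it was -0.09 in the authors' deposited table, with 15 above 0 and 35 below, beside 0.00 over all genes. Among the other clusters the list median lay below that of all genes in most, clusters 0, 1, 2, 3, 4, 6, 9, 10 and 12. In clusters 0, 4, 9 and 12 the gap was small. It was -0.02 in cluster 6, beside 0.04 over all genes, and 0.03 in cluster 10, beside 0.09. The list median lay above that of all genes in clusters 5, 11 and 13. In cluster 13 it was 0.35 in the authors' deposited table, with 19 above 0 and 12 below, beside 0.19 over all genes, and in cluster 11 it was 0.20, with 23 above 0 and 7 below, beside 0.14. Of the 53 genes, 1 was called anywhere: slc4a1b, the paralog of slc4a1a, was lower in the BaP lineage in cluster 7, at 2.02 CPM in the BaP lineage and 129 CPM in the control lineage, from 1 and 23 UMIs (-1.26, adjusted p = 0.000127 in the authors' deposited table). Unlike the 4 genes, slc4a1b was higher in cluster 7 than in cluster 8, at 42.9 and 14.8 CPM over both lineages, from 24 and 8 UMIs. In cluster 8 slc4a1b had 0 UMIs in the BaP lineage and 8 in the control lineage (adjusted p = 0.808 in the authors' deposited table), and how reads were assigned between the paralogs was not tested.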

How the data were processed

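The authors deposited 14 tables, 1 per cluster, over 24365 genes, and no column belongs to a single fish. Per the file headers, they hold a log2 fold change, a log2 mean level in CPM, a p-value and a false discovery rate, here called the adjusted p. Cell Ranger was used, per the submitters' processing notes, which give no version. How doublets and free RNA were handled, and which test and unit of replication were used, is not given in the sources used here. Reads were aligned to a medaka assembly and the 6 libraries were aggregated, per the series design text. Coordinates and sequences are not used here. The table names code controls as 0 and treated fish as 1, from which a positive fold change was taken to mean a higher level in the BaP lineage. The adjusted p equals the Benjamini-Hochberg value over all 24365 genes of a table.

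Nuclei, depth and UMIs were worked out from the deposited log2 values and p-values. The lowest log2 level in a table, shared by undetected genes, gives the depth if a prior count of 2 was added. Genes with 1 count give the nuclei of each lineage, from their p-value and from a fold change with a prior count of 0.125. No source states these priors, nor that nuclei were the unit of the test. The arithmetic was tested on simulated data, which shared the assumptions. Depth per fish is unknown.

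A call is an adjusted p under 0.05 in the authors' tables, and no test was added. Members and gene lists were chosen with earlier results of these data known. The rule for named genes took all 4 genes in every cluster, and per role of the wider list the called genes and the 4 highest ratios of cluster 8 to the median elsewhere. It also took the 10 symbols most like the 4 genes and at most 2 identifiers. Other genes named, such as ANK1, add2, hbba1 and prdx2, were chosen after their values were seen. Limits of 0 are 3 counts per cluster, and intervals are at 95%. Python 3.11, numpy 2.4.6, pandas 2.3.3, scipy 1.17.1 and matplotlib 3.10.9 were used. Alternatives varied the threshold, adjustment, scaling, prior count, lineage and likeness measure.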

Additional observations from a re-analysis of the deposited data

How the results depend on the processing

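No paired analysis was possible because the tables hold no values per fish, and for the same reason leaving out each fish was not run. hbbe2 was lower in the BaP lineage in 10 of 13 clusters outside cluster 8 under each scaling tried. Calls of the 4 genes numbered 2 lower with an absolute deposited log2 fold change of at least 1, and 11 lower and 1 higher at an unadjusted p under 0.05. The deposited fold changes are damped by the prior count. With that count taken out, the calls that missed the cut stood at -1.10 for hbbe2 in cluster 0 and -1.003 in cluster 1, and -3.43 for alas2 in cluster 0. For the wider list without the 4 genes, 53 genes in 14 clusters, the unadjusted numbers were 20 lower and 9 higher. Over all genes, 1.19% of pairs of gene and cluster were lower and 1.85% higher at that threshold. The list was chosen with earlier results known, so nothing is read from these counts. The level outside cluster 8 as a percent of that in cluster 8 was, for hbbe2, 5.10 with the prior count left in, 1.59 in the BaP lineage alone, 3.44 in the control lineage alone, 1.95 in UMIs per nucleus and 1.72 without clusters 7 and 13. For alas2 these were 63.0 with the prior count, 1.65 in the BaP lineage, 3.69 in the control lineage and 1.82 without the 2 clusters. For slc4a1a they were 86.5, 0.811 and 2.99, and for cahz 67.1, 1.55 and 3.38, with 1.54 for cahz without the 2 clusters. UMIs per nucleus and the omission of clusters 7 and 13 were chosen after seeing the data. The prior count sets the deposited levels of the 3 scarcer genes. Of the 10 most similar genes, 3 were shared under Spearman correlation, 6 with a pseudocount of 10 and 0 with the control lineage alone, where the cause was not tested. Of 51 fold changes that are not at 0, 11 had the other sign with totals without mitochondrially encoded genes, 6 with the median of well-expressed genes at 0 and 6 per nucleus, and 0 of those had been called. Those rescalings moved all genes of a cluster by -0.27 to -0.04 and by -0.34 to 0.01. Outside cluster 8, alas2 had 217 UMIs over the 13 clusters, cahz 172 and slc4a1a 43, which limits the precision of their lineage values.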

Other observations

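ENSORLG00000026256, which has no symbol in the tables, was a further gene highest in cluster 8 and was chosen after its values were seen. By likeness to the 4 genes it ranked only 104 among the 9241 genes (r = 0.78), so other unnamed genes were closer to them. It stood at 2514 CPM in the BaP lineage and 4983 CPM in the control lineage there. The authors' deposited table called it lower in the BaP lineage in cluster 8 (log2 fold change -0.96, adjusted p = 0.0388), where none of the 4 red cell genes was called. Some genes closer to the 4 were called the other way there, higher in the BaP lineage. ENSORLG00000029233, at rank 12 (r = 0.91), stood at 740 CPM in the BaP lineage and 225 CPM in the control lineage in cluster 8. Its log2 fold change there was 1.40 in the authors' deposited table, and that of tmem18, at rank 57, was 1.21. In the authors' deposited tables ENSORLG00000026256 was also called lower in clusters 0, 1, 2, 5 and 7, and its value was below 0 in each of the 13 clusters outside cluster 8. Of all genes, 0.0903% were called lower in cluster 5. The proportion of ENSORLG00000026256 to hbbe2 differed from that of the red cell genes. Per 100 UMIs of hbbe2 it had 7.02 in cluster 8 and 26.6 in the other clusters, and its pooled level elsewhere was 7.95% of that in cluster 8.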
